A study of Mus musculus with 20 samples.

Results

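The subject is ageing of the ovary in Ames dwarf mice: the 5 ovary libraries of dwarf females aged 22 months against the 5 of dwarf females aged 6 months, 10 of the 20 libraries in the series. Members were taken by their labels, which give genotype and age, and no measured value entered the choice. The stock is labelled Ames dwarf. Dwarf mice carry the df allele on both chromosomes (df/df) and make no growth hormone, prolactin or thyrotropin, because the pituitary cells that secrete them do not form. The deficiency is lifelong and whole-body, and both ages of dwarf mice share it. The other 10 libraries, from N/df females called normal in the labels and of the same 2 ages, serve below as the comparison. By the study's design text 20 mice were used, so each library was taken as 1 mouse. The labels name polyadenylated RNA from frozen ovaries and do not say whether 1 or both ovaries of a mouse were used.

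The ovary holds a fixed stock of oocytes, each enclosed by granulosa cells in a follicle. Follicles that start to grow recruit dividing granulosa cells and steroid-making theca cells behind a basement membrane, and those that ovulate become corpora lutea. With age the stock runs down. Dwarf mice are long-lived, and the series title names reproductive senescence as the topic.

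Libraries of the 2 ages differed in depth without overlap. The 6-month libraries held 14224520 to 36068284 counts in genes, and the 22-month libraries held 5399377 to 13448164. Levels are given as CPM, in which each library's counts are divided by its total after TMM scaling, a correction for differences in make-up. The score of a gene list is the mean log2 CPM of its tested genes in a library. Markers of the labelled tissue were present: the oocyte, granulosa, theca and luteal marker lists had no member at 0 in all dwarf libraries. Markers of the neighbouring oviduct were also present, in unequal amounts. All 9 oviduct secretory markers found in the files were tested. Their summed level ran from 73.5 to 1631 CPM at 6 months and from 1961 to 3609 CPM at 22 months, and no marker was at 0 in all dwarf libraries. Dwarf 6-month replicates 3 and 5 had the least, with Ovgp1, an oviduct secretory gene, at 11.9 and 21.2 CPM against 435, 913 and 490 CPM in replicates 1, 2 and 4. Foxj1, the regulator of motile cilia, stood at 8.18 and 2.12 CPM in replicates 3 and 5 and at 133, 353 and 175 CPM in replicates 1, 2 and 4. On the first principal component of the 10 dwarf libraries (58% of variance) those 2 libraries lay at 97.3 and 104.5. The other 3 libraries of that age lay between -5.92 and 32.8, and the 22-month libraries between -74.6 and -35.2. Results are therefore given with and without dwarf 6-month replicates 3 and 5. Their part and that of oviduct RNA in the results was not tested beyond these values. The files are from whole ovary, so fewer cells of a type and less RNA per cell cannot be told apart.

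Between 6 and 22 months edgeR called 1802 of 16099 tested genes in dwarf ovary at a Benjamini-Hochberg adjusted p under 0.05 (11.2%). Of these, 470 were higher at 22 months (2.92% of tested genes) and 1332 were lower (8.27%). Changes of at least 2-fold were found in 267 of the higher and 529 of the lower genes. The 5 and 5 libraries did not overlap in 1641 of the called genes. Over all tested genes the median log2 change was 0.0021. The groups did not overlap in 23% of tested genes, 8.3% with the old libraries above and 14.7% with them below. The number of calls depended on the libraries. With dwarf 6-month replicates 3 and 5 left out it was 180, 34 higher and 146 lower, all of them among the 1802. In that fit 2575 genes had an unadjusted edgeR p under 0.05. Of the 1802 genes all kept their sign, 1757 had such a p, and the median gene had 0.912 of its log2 change. The 1802 were chosen by a fit that holds the same remaining libraries, so these values were largely fixed in advance. Leaving out 1 library gave 802 (dwarf 6-month replicate 5), 954 and 1127 (22-month replicates 2 and 3), 972 (6-month replicate 3), 1014 and 1185 (6-month replicates 1 and 4) and 1079 and 1069 (22-month replicates 1 and 4). It gave 1304 without 22-month replicate 5 and 1681 without 6-month replicate 2. Fitted on the 10 dwarf libraries alone, edgeR called 5169 genes, of which 2361 were higher. In the rest of the text each log2 change of a single gene with a ± value carries its standard error, and each mean CPM its SD.

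**Figure D1:**
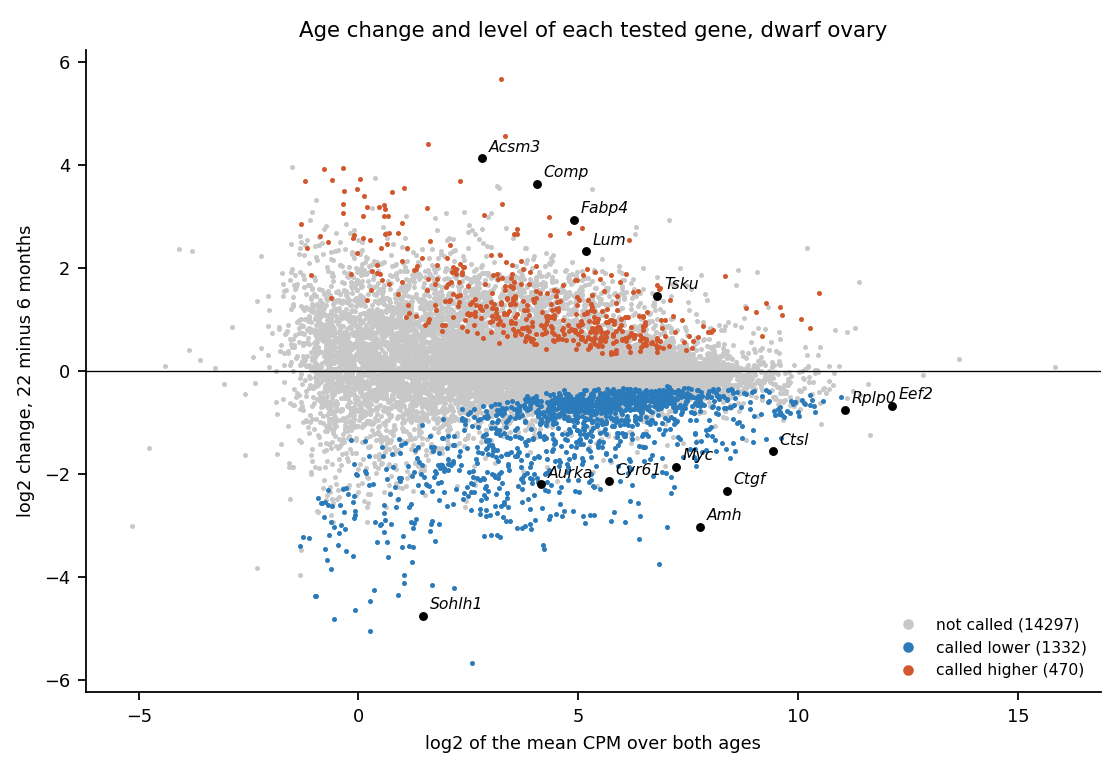
Log2 change from 6 to 22 months (vertical axis) against the log2 of the mean CPM over both ages (horizontal axis) for each of the 16099 tested genes of dwarf ovary. Blue points are the 1332 genes called lower, orange points the 470 called higher, and grey points were not called. Black points with names are genes described in the text.

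Most of the oocyte genes tested were called lower in old dwarf ovaries. Of 27 tested genes for structural and secreted products of the oocyte, 19 were called lower and none higher (8.27% of all tested genes were lower), and the median log2 change was -2.56. Of 27 transcription and RNA genes of germ cells, 18 were lower, with a median of -2.59. Without dwarf 6-month replicates 3 and 5 the calls were 2 and 5, with medians of -2.43 and -2.65. With the score of the oviduct secretory markers as a covariate in the fit they were 5 and 9. That score itself differed with age, at 2.29 to 6.37 in the 6-month and 5.91 to 6.88 in the 22-month libraries. In this fit, here and below, the part of age and that of oviduct RNA therefore cannot be fully told apart. Leaving out 1 library gave 9 to 18 calls for the first list (12 or fewer without any of the 22-month libraries, and 9 without 6-month replicate 5) and 12 to 18 for the second. The score of the germ cell list was 2.67 to 3.12 in the 6-month libraries and 0.336 to 0.732 in the 22-month libraries. The summed level was 309 to 419 CPM at 6 months and 98.6 to 121 CPM at 22 months.

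Regulators that switch on the oocyte programme fell to low levels in old dwarf ovaries. Sohlh1, an early transcription factor of primordial follicles (mm10 chromosome 2, 25842997 to 25847248), read 5.85, 5.25, 5.22, 3.85 and 6.59 CPM in 6-month replicates 1 to 5 and 0, 0.284, 0.071, 0.168 and 0.535 CPM in 22-month replicates 1 to 5 (log2 -4.76 ± 0.78, edgeR adjusted p = 0.00148, or 0.0193 without dwarf 6-month replicates 3 and 5). Every 6-month value was several times the highest 22-month value, and 1 of the old libraries had no count. Nobox, a homeobox factor of growing oocytes, read 23.9, 20.9, 24.5, 31 and 32.2 CPM at 6 months and 3.63, 4.25, 2.56, 3.36 and 3.21 CPM at 22 months (log2 -2.96 ± 0.669, edgeR adjusted p = 0.0097, or 0.0675 without dwarf 6-month replicates 3 and 5). Figla, which drives the genes of the egg coat, fell from 3.87 ± 0.881 to 0.222 ± 0.243 CPM (SD, n = 5), with log2 -3.96 ± 0.833 (edgeR adjusted p = 0.00657). Its 22-month values were 0.125, 0, 0.639, 0.168 and 0.178 CPM, the highest in replicate 3, without which the log2 change was -4.98. Its call ended without dwarf 6-month replicates 3 and 5 (edgeR adjusted p = 0.0579).

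The piRNA pathway, which silences transposons in germ cells, was represented by Mael and by the helicase gene Mov10l1. Mael read 2.71, 4.19, 3.64, 2.87 and 4.38 CPM at 6 months and 0.125, 0.0945, 0.071, 0.252 and 0.357 CPM at 22 months (log2 -4.35 ± 0.748, edgeR adjusted p = 0.00209). Mov10l1 read 3.9, 2.51, 3.44, 4.48 and 5.09 CPM at 6 months and 0.376, 0, 0.142, 0.168 and 0.535 CPM at 22 months (log2 -4.12 ± 0.725, edgeR adjusted p = 0.00254). Neither gene overlapped between the ages, and both kept the call without dwarf 6-month replicates 3 and 5 (edgeR adjusted p = 0.0243 and 0.0274).

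Transcripts stored for the early embryo fell too. Zbed3 (mm10 chromosome 13, 95325237 to 95337841) and Ooep belong to the maternal complex under the egg surface, as does Tle6. Zbed3 read 271, 222, 256, 326 and 309 CPM at 6 months and 97.5, 97.8, 82.5, 103 and 105 CPM at 22 months (log2 -1.51 ± 0.259, edgeR adjusted p = 0.00206). The old libraries lay within a narrow band, well below each young one. Ooep and Tle6 also fell (log2 -2.67 ± 0.467 and -1.89 ± 0.386, edgeR adjusted p = 0.00239 and 0.0059). Npm2, a histone chaperone of the egg, averaged 44.1 ± 7.7 CPM at 6 months and 6.71 ± 1.69 CPM at 22 months (SD over 5 libraries). It fell, with log2 -2.72 ± 0.616 (edgeR adjusted p = 0.00998). Zbed3 and Ooep kept the call without dwarf 6-month replicates 3 and 5, whereas Tle6 and Npm2 had edgeR adjusted p = 0.0527 and 0.0675.

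Of 16 tested genes of meiosis and meiotic arrest 5 were lower and none higher (8.27% of all tested genes were lower), with a median log2 change of -0.33. Ccno, an atypical cyclin of oocytes and multiciliated cells, read 44.3, 36, 42.1, 49.1 and 46.4 CPM at 6 months and 8.77, 5.67, 4.97, 6.65 and 4.82 CPM at 22 months (log2 -2.82 ± 0.391, edgeR adjusted p = 0.000651, and 0.00907 without dwarf 6-month replicates 3 and 5). The ciliated cell markers had scores of 0.828 to 5.20 at 6 months and 4.74 to 6.03 at 22 months, with overlap, and none of the 8 was called. Foxj1 among them was called higher in limma voom, an alternative to edgeR that called 7492 genes in all. The part of the ciliated cell markers in the Ccno values was not tested. The meiotic cohesin gene Smc1b went from 2.41 ± 0.262 to 0.258 ± 0.205 CPM (edgeR adjusted p = 0.0127, or 0.0814 without dwarf 6-month replicates 3 and 5). The count of 5 was 2 without 22-month replicate 4, 3 without 22-month replicates 2 or 5 or 6-month replicates 4 or 5, and 1 without both libraries low in oviduct markers. It was 2 with the oviduct score in the fit and 3 in thinned counts.

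The oocyte homeobox motif TAATTG, a core bound by NOBOX, was searched on both strands in the 250 bases before each start of transcription in RefSeq (GRCm38.p6). Windows of tested genes held it in 4.55% of cases (725 of 15924). It was in 1 of 32 windows of the germ cell list and 4 of 27 windows of the list of oocyte products, which stand for 24 and 21 of their 27 tested members. The called members of these lists that held it are shown because they are maternal genes that fell, with the motif in capitals. The Ooep window lies at chr9:78378589-78378838 on the minus strand and that of Zar1l, a relative of the egg gene Zar1, at chr5:150518160-150518409 on the minus strand.
Ooep: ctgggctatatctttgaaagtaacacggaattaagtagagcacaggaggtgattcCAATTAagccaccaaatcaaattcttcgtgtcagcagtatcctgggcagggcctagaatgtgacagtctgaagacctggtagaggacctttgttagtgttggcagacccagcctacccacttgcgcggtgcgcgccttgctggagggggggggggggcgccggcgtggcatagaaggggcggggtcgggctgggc
Zar1l: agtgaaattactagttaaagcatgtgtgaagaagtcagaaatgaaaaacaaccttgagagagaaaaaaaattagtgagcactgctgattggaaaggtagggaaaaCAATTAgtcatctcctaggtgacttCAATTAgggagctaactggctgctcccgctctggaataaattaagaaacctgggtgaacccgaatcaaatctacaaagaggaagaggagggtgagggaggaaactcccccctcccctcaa
The motif starts 195 bases before the start of Ooep, and 145 and 120 bases before that of Zar1l, where it occurs 2 times. All 3 matches read on the strand opposite the gene, so that the windows, printed along the gene, show them as the reverse complement. Zar1l read 4.88, 2.74, 3.3, 5.74 and 4.53 CPM at 6 months and 0.125, 0.284, 0.994, 0.757 and 0.178 CPM at 22 months (log2 -3.06 ± 0.762, edgeR adjusted p = 0.0157). That call ended when counts were thinned to the shallowest dwarf library (log2 -2.38, edgeR adjusted p = 0.082), when the oviduct score entered the fit (-2.23, 0.0628) and without dwarf 6-month replicates 3 and 5 (-3.10, 0.0831).

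Among somatic genes of the follicle Amh and Foxo1 were called lower. Of 26 granulosa genes 3 were lower (Amh, Esr2 and Serpine2) and none higher, where 8.27% of all tested genes were lower. The list had a median log2 change of -0.63. The count was 1 without any library but 6-month replicate 2, and 0 without dwarf 6-month replicates 3 and 5. In the fit with the oviduct score 1 granulosa gene was lower and 2 were higher. Amh, the hormone of small growing follicles, read 475, 238, 368, 434 and 431 CPM at 6 months and 43, 53.6, 53.9, 52.8 and 36.2 CPM at 22 months (log2 -3.02 ± 0.652, edgeR adjusted p = 0.0078). No library of either age came near the other group. Foxo1, a transcription factor that insulin signalling restrains and granulosa cells express highly, read 469, 354, 717, 588 and 529 CPM at 6 months and 175, 203, 228, 182 and 221 CPM at 22 months (log2 -1.40 ± 0.287, edgeR adjusted p = 0.0059). The glutamine carrier gene Slc38a3, outside that list like Foxo1, read 301, 176, 207, 139 and 247 CPM at 6 months and 7.27, 36.8, 8.59, 7.07 and 20.0 CPM at 22 months (log2 -3.75 ± 0.839, edgeR adjusted p = 0.00946). Without 22-month replicate 2, which had the highest old value, its log2 change was -4.35. These 3 genes missed the threshold without dwarf 6-month replicates 3 and 5 (edgeR adjusted p = 0.0579, 0.0691 and 0.0631).

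The lists of theca and luteal genes gave 4 calls, where 11.2% of all tested genes were called. Of 19 theca genes 1 was higher and 2 were lower (median log2 -0.11), and of 17 luteal genes 1 was lower (median 0.26). The theca calls were Por, higher, and Insl3 and Cyb5, lower, and the luteal call was Ptges. Por lost its call without 22-month replicate 2 or 6-month replicates 1 or 4, 1 of the 2 theca falls without 22-month replicate 1 or 6-month replicates 3 or 5, and all 4 without dwarf 6-month replicates 3 and 5. No luteal gene and 1 lower theca gene were called with the oviduct score in the fit. Insl3 shares 406 of its 587 exonic bases with Jak3 on the same strand, so the assignment of its reads is uncertain. Hsd3b1, the enzyme that completes progesterone, read 1109.7, 1442, 2111, 1731 and 1818 CPM at 6 months and 3274, 1217, 3042, 3182 and 3303 CPM at 22 months. Old replicate 2 lay within the young range and the other 4 above it, and the difference did not pass (log2 0.77 ± 0.665, edgeR adjusted p = 0.455, 95% interval -0.53 to 2.07). Hsd3b1 was called higher in limma voom and in the edgeR fit on the 10 dwarf libraries alone. Those fits called 7492 and 5169 genes in all. Cyp19a1, the aromatase that makes estradiol, was low at both ages, at 1.42, 0.782, 3.09, 3.15 and 3.03 and 3.13, 0.662, 3.55, 3.03 and 3.57 CPM (log2 0.28 ± 1.03, 95% interval -1.75 to 2.31). Cyb5, the cytochrome that aids androgen synthesis, fell (log2 -0.97 ± 0.199, edgeR adjusted p = 0.0059, or 0.0835 without dwarf 6-month replicates 3 and 5). Th, which encodes tyrosine hydroxylase of catecholamine synthesis, read 5.44, 7.49, 5.09, 5.04 and 7.41 CPM at 6 months and 0.627, 0.756, 0.923, 0.336 and 0.357 CPM at 22 months (log2 -3.29 ± 0.617, edgeR adjusted p = 0.0036, and 0.0338 without those libraries). Mafa, a transcription factor best known from pancreatic beta cells, read 2.39, 2.01, 2.34, 2.45 and 2.91 CPM at 6 months and 0.125, 0, 0.142, 0.168 and 0.178 CPM at 22 months (log2 -4.24 ± 0.531, edgeR adjusted p = 0.00039, and 0.00907 without those libraries).

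Most mitosis genes and part of the replication genes were called lower. Of 57 mitosis genes, 45 were lower, none was higher and all 57 had a negative change, with a median of log2 -1.78. In 50 of them the old libraries lay below the young ones without overlap. Over all tested genes 14.7% lay so and 8.27% were called lower. Among 47 DNA replication genes 20 were lower and all 47 negative (median -0.92), and among 38 genes of break repair and checkpoints 7 were lower (median -0.44). In the fit without dwarf 6-month replicates 3 and 5 the calls were 15, 5 and 1 and the medians -1.77, -0.78 and -0.41. The calls were 30, 8 and 4 with the oviduct score in the fit, and 4 repair genes were called in thinned counts. Leaving out 1 library gave 36 to 46 mitosis calls and 11 to 19 replication calls. The replication count was lowest without 6-month replicate 5, and was 12 without 6-month replicate 1 and 13 without 22-month replicates 4 or 5. The score of the mitosis list was 3.74 to 4.53 at 6 months and 2.35 to 2.84 at 22 months.

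Aurka, the kinase of spindle poles, read 31.9, 19.6, 24.1, 31.4 and 40.1 CPM at 6 months and 5.89, 6.81, 8.02, 5.97 and 5.17 CPM at 22 months (log2 -2.20 ± 0.319, edgeR adjusted p = 0.000758). Cdca8, a subunit of the complex that corrects chromosome attachment, read 30.8, 21.8, 28.5, 43.1 and 41.6 CPM at 6 months and 6.89, 5.39, 8.23, 8.5 and 3.75 CPM at 22 months (log2 -2.33 ± 0.351, edgeR adjusted p = 0.000856). Cks2, which binds cyclin-dependent kinases, read 20.2, 18.4, 18.4, 24.1 and 28.1 CPM at 6 months and 3.88, 5.2, 6.6, 5.22 and 5.89 CPM at 22 months (log2 -2.03 ± 0.287, edgeR adjusted p = 0.000666). In each of the 3 genes the lowest young library stood above the highest old one by over 2-fold. All 3 kept the call without dwarf 6-month replicates 3 and 5, with edgeR adjusted p = 0.0102, 0.0116 and 0.00991.

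Among the replication genes, Chaf1a, which loads histones behind the fork, read 61.6, 44.9, 53.1, 60.0 and 61.8 CPM at 6 months and 21.7, 23.4, 23.3, 24.7 and 24.3 CPM at 22 months (log2 -1.26 ± 0.177, edgeR adjusted p = 0.000651). Mcm2, of the replicative helicase, read 68.6, 54, 67.9, 69.1 and 87 CPM at 6 months and 29.8, 25.3, 35.8, 27 and 31.2 CPM at 22 months (log2 -1.22 ± 0.223, edgeR adjusted p = 0.00325). Cdt1, which loads that helicase, and Uhrf1, which guides maintenance methylation of DNA, also fell (log2 -1.65 ± 0.266 and -1.84 ± 0.289, edgeR adjusted p = 0.00141 and 0.0012). All 4 kept the call without dwarf 6-month replicates 3 and 5 (edgeR adjusted p = 0.00991, 0.0454, 0.0222 and 0.0162). Of the repair genes, Parp1, which marks broken DNA, fell (log2 -0.79 ± 0.187, edgeR adjusted p = 0.012, or 0.128 without those libraries).

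Many promoters of mitotic genes carry a CCAAT box and the cell cycle homology region TTTGAA. Searched on both strands of the same 250 bases, CCAAT was in 35 of 50 windows of the mitosis list (70%) and in 34.4% of windows of tested genes. TTTGAA was in 14 of those 50 windows (28%) against 11.1%. For the replication list the counts were 27 of 45 (60%) and 7 of 45 (15.6%). Both lists were chosen by function and include members not called, so these shares do not bear on the age change. Windows were found for 47 of 57 mitosis genes and 37 of 47 replication genes. The 3 called mitosis genes with the smallest p that held TTTGAA are shown with that motif in capitals, because the list they come from had no member with a positive change.
Cdc20: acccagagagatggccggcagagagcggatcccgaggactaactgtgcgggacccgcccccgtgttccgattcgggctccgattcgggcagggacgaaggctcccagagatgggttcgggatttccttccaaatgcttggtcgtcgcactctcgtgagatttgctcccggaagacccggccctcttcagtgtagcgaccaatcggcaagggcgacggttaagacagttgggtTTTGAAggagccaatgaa
Ube2c: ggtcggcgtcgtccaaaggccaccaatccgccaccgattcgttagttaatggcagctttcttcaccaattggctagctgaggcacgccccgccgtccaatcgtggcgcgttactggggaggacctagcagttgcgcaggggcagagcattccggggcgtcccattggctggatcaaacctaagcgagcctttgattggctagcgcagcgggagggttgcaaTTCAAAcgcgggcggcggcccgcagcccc
Kif22: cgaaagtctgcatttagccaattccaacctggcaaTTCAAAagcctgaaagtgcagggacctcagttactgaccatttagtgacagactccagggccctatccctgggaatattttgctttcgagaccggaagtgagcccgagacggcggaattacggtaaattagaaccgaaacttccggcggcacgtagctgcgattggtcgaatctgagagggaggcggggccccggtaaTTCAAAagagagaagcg
The Cdc20 window lies at chr4:118437344-118437593 on the minus strand, that of Ube2c at chr2:164769679-164769928 on the plus strand and that of Kif22 at chr7:127042421-127042670 on the minus strand. The motif starts 18 bases before the start of Cdc20, 29 before Ube2c, and 215 and 17 before Kif22. It reads along the gene in Cdc20, and on the opposite strand, so printed as its reverse complement, in Ube2c and Kif22. Cdc20 activates the ligase that ends mitosis, and read 55.5, 34.9, 40.1, 60.7 and 72.6 CPM at 6 months and 15.5, 12, 17.8, 12.8 and 17.1 CPM at 22 months. Its exons share 16 bases with Elovl1 on the other strand. The strand setting of the counting is not given in the sources used here, so reads of that stretch cannot be told apart. Ube2c, the ubiquitin carrier of the same step, read 46.2, 39.1, 48, 62.2 and 59.4 CPM at 6 months and 10.0, 11.1, 11.1, 10.0 and 8.74 CPM at 22 months. Kif22, a motor on chromosome arms, read 44.6, 30.2, 29.1, 43.4 and 51.2 CPM at 6 months and 8.65, 4.54, 9.58, 9.17 and 6.96 CPM at 22 months. In all 3 genes the ages were apart, with changes of log2 -1.81 ± 0.281, -2.32 ± 0.373 and -2.35 ± 0.378 (edgeR adjusted p = 0.00115, 0.0014 and 0.00141). The calls held without dwarf 6-month replicates 3 and 5 (edgeR adjusted p = 0.0117, 0.0185 and 0.0141).

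**Figure D2:**
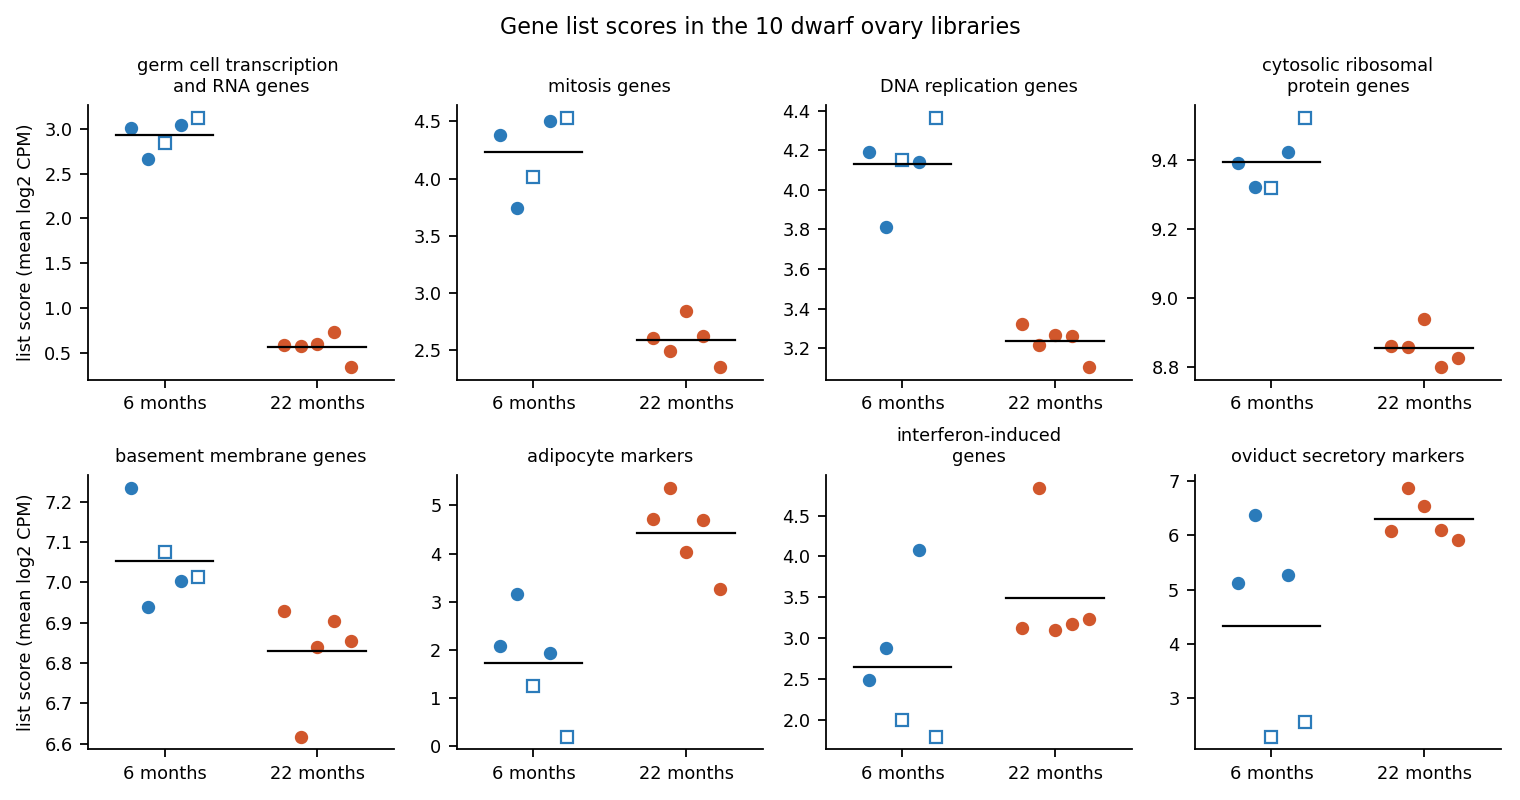
Scores of 8 gene lists (vertical axis, mean log2 CPM of the list's tested genes; each panel has its own range) in the 5 dwarf libraries of each age, with replicates 1 to 5 from left to right. Lines are group means, and open squares are dwarf 6-month replicates 3 and 5. The mitosis score is 3.74 to 4.53 at 6 months and 2.35 to 2.84 at 22 months, while oviduct markers are lowest in the open squares.

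Ctgf and Cyr61, which growth factors induce, fell. The Hippo pathway restrains the co-activators YAP and TAZ, which act through TEAD factors on targets such as Ctgf and Cyr61, both secreted matricellular proteins. Ctgf (mm10 chromosome 10, 24595442 to 24598682) read 622, 357, 619, 497 and 691 CPM at 6 months and 96.5, 96.2, 122, 106 and 137 CPM at 22 months (log2 -2.32 ± 0.296, edgeR adjusted p = 0.00039). The lowest young library, replicate 2, was still over 2-fold above the highest old one. Cyr61 (mm10 chromosome 3, 145646971 to 145649985) read 125, 61.4, 70.2, 48.9 and 118 CPM at 6 months and 15.9, 25.1, 21.7, 18.8 and 14.3 CPM at 22 months (log2 -2.14 ± 0.323, edgeR adjusted p = 0.000858). Its young libraries fell into a higher pair, replicates 1 and 5, and a lower group of 3, and none overlapped the old ones. Both genes kept the call without dwarf 6-month replicates 3 and 5 (log2 -2.12 and -2.01, edgeR adjusted p = 0.00907 and 0.0127).

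Of 22 tested Hippo targets 5 were lower and none higher (8.27% of all tested genes were lower). The median log2 change was -0.24, and 9 members had a positive change. The count was 2 to 4 with 1 library left out, being 2 or 3 without any library but 6-month replicate 2, 2 without dwarf 6-month replicates 3 and 5, and 3 with the oviduct score in the fit. Without 6-month replicate 2 alone, 2 members were called higher. The fifth call was Wisp1, a relative of Ctgf. The list score was 5.11 to 5.35 at 6 months and 5.12 to 5.20 at 22 months, with overlap. The TEAD motif GGAATG, on either strand, was in 10 of 17 windows of the list (58.8%), which stand for 14 of 22 members, and in 11.1% of windows of tested genes. The list was chosen as Hippo targets and its windows include members not called, so this share does not bear on the age change. The called members holding the motif are shown with it in capitals, since Cyr61 is among them.
Cyr61: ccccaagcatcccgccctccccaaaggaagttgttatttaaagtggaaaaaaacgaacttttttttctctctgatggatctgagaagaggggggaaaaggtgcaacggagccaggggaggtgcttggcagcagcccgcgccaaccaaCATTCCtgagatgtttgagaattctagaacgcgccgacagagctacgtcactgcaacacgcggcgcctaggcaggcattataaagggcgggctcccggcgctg
Ajuba: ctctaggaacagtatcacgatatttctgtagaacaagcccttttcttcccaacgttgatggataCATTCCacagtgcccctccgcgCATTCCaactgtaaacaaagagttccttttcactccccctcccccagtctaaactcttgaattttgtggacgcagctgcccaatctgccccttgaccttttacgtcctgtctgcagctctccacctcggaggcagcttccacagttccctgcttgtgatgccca
Amotl2: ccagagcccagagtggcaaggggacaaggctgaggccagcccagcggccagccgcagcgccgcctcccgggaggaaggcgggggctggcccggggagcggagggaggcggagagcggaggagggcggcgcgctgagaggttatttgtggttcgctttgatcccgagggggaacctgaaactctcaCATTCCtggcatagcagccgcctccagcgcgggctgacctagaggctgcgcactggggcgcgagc
Cyr61, named Ccn1 in RefSeq, has its window at chr3:145649986-145650235 on the minus strand, Ajuba at chr14:54577662-54577911 on the minus strand and Amotl2 at chr9:102717554-102717803 on the plus strand. The motif starts 103 bases before the start of Cyr61, 186 and 164 before Ajuba and 65 before Amotl2, each time on the strand opposite the gene and so printed as its reverse complement. Ajuba and Amotl2 encode scaffold proteins of the pathway itself. Ajuba went from 66.5 ± 6.05 to 44.1 ± 4.16 CPM and Amotl2 from 129.5 ± 30.1 to 86.1 ± 9.57 CPM (SD, n = 5). Both calls were marginal (edgeR adjusted p = 0.0287 and 0.0481). Ajuba lost its call without any 1 library but 6-month replicate 2 (edgeR adjusted p up to 0.0962) and Amotl2 without any 1 library (up to 0.178). No window of Ctgf or Myc was in the promoter table.

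Of 32 immediate early genes 5 were lower and none higher (8.27% of all tested genes were lower), with a median log2 change of -0.31. Myc, which drives growth and ribosome production, read 249, 159.7, 237, 268 and 250 CPM at 6 months and 68, 68.8, 56, 57.8 and 70.4 CPM at 22 months (log2 -1.86 ± 0.274, edgeR adjusted p = 0.000791). Replicate 2 was the low value of the young group, and still over 2-fold above each old library. Mafk, a small partner of stress response factors, read 77.2, 64.5, 78.2, 78.5 and 85.6 CPM at 6 months and 32.7, 47, 34.2, 32.2 and 46.5 CPM at 22 months (edgeR adjusted p = 0.00117). The other calls were Fos, Egr2 and Ier2. Both kept the call without dwarf 6-month replicates 3 and 5 (edgeR adjusted p = 0.0116 and 0.0226), and the other 3 did not. The list's count was 2 without 22-month replicates 4 or 5 or 6-month replicates 3 or 5, and 3 without 22-month replicate 3 or 6-month replicate 1. It was 2 in thinned counts and with the oviduct score in the fit.

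**Figure D3:**
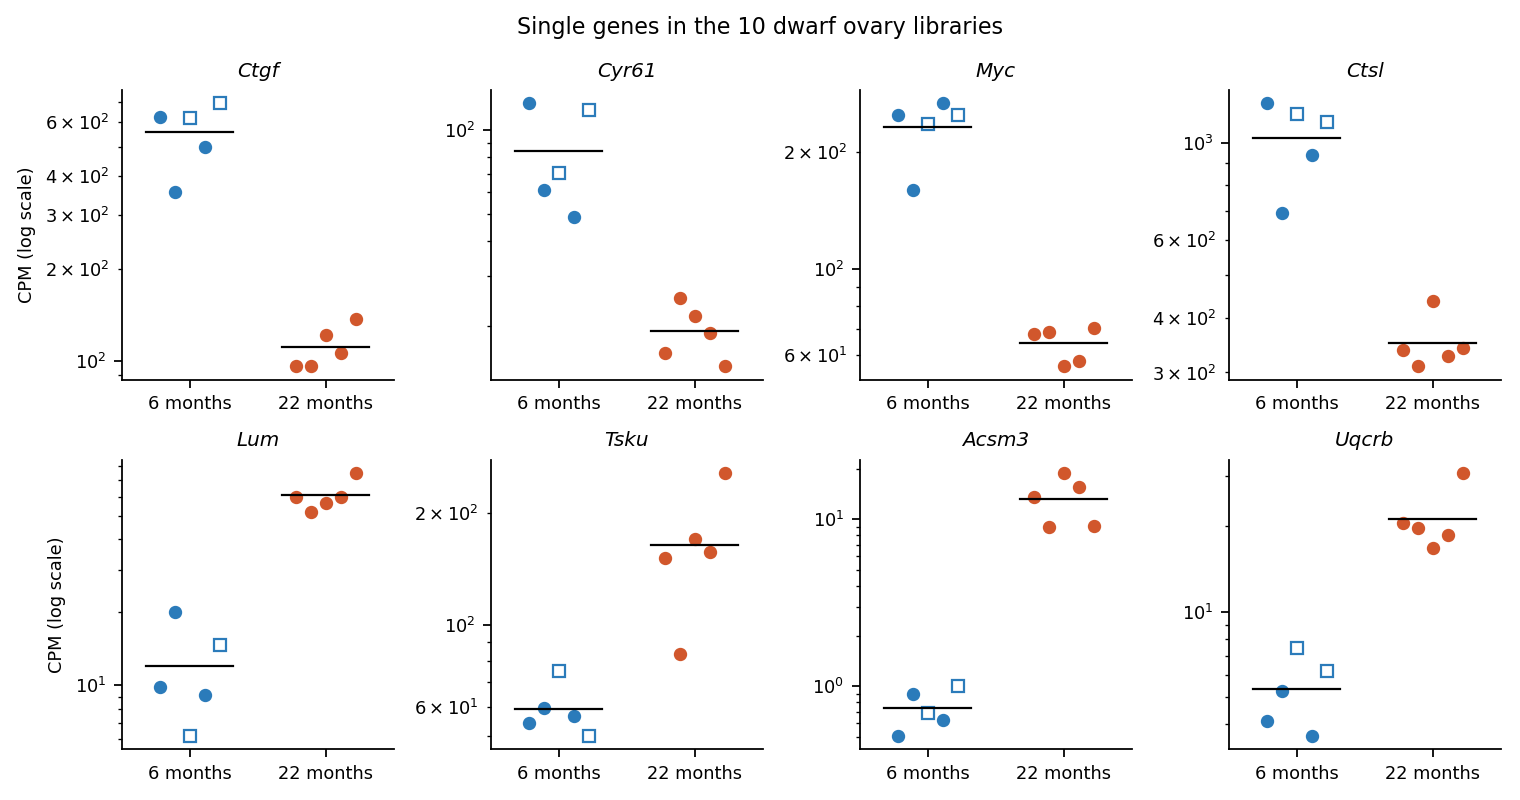
CPM on a log scale (vertical axis, each panel with its own range) of 8 genes in the 5 dwarf libraries of each age, replicates 1 to 5 from left to right. Lines are group means and open squares are dwarf 6-month replicates 3 and 5. In all 8 genes the 2 ages do not overlap, and the open squares lie within or near the range of the other young libraries.

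Calls among matrix genes went in both directions. Of 36 genes of fibrillar collagens and their processing 8 were lower and none higher (median log2 -0.38), and of 26 basement membrane genes 5 were lower (median -0.42). Of 23 small leucine-rich proteoglycan and cartilage matrix genes 4 were higher and 1 was lower (median 0.11). Over all tested genes 2.92% were higher and 8.27% lower. Without dwarf 6-month replicates 3 and 5 the collagen count was 2, the basement membrane count 0 and the proteoglycan counts 1 and 0. With the oviduct score in the fit 4 collagen genes and 2 basement membrane genes were lower. In that fit 4 proteoglycan genes were higher, Dcn not among them. In thinned counts 3 basement membrane genes were lower. Leaving out 1 library gave 3 to 8 collagen calls, fewest without 6-month replicate 5 and at most 5 without any but 6-month replicate 2 or 22-month replicate 5, and 2 members were called higher without 6-month replicate 2. It gave 2 to 5 basement membrane calls, at most 3 without any but 22-month replicate 5 or 6-month replicates 2 and 4. The 4 proteoglycan rises (Lum, Dcn, Ogn and Comp) were called in each of the fits with 1 library left out. The 1 fall, Thbs4, was called in none of them but that without 6-month replicate 2.

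Among the lower genes, Adamts2, the enzyme that trims the ends of procollagen, read 261, 186, 271, 249 and 303 CPM at 6 months and 77.1, 77, 74.2, 78.7 and 94.7 CPM at 22 months (log2 -1.66 ± 0.223, edgeR adjusted p = 0.000454). Plod1, which hydroxylates collagen lysines, and Serpinh1, the collagen chaperone, fell as well (log2 -0.79 ± 0.129 and -0.98 ± 0.201, edgeR adjusted p = 0.00148 and 0.0059). Col4a1, a basement membrane collagen chain (mm10 chromosome 8, 11198423 to 11312826), read 829.7, 654, 1101, 718 and 1144 CPM at 6 months and 338, 270.4, 343, 327 and 499 CPM at 22 months. Its neighbour Col4a2, on the other strand (mm10 chromosome 8, 11312829 to 11449287), read 658, 556, 900.2, 569 and 938 CPM at 6 months and 269, 213, 273, 263 and 380.1 CPM at 22 months. In both chains young replicate 5 was highest and old replicate 2 lowest, and the ages did not overlap. The changes were log2 -1.32 ± 0.309 and -1.37 ± 0.285 (edgeR adjusted p = 0.0111 and 0.0061), and -1.03 and -1.07 without dwarf 6-month replicates 3 and 5 (edgeR adjusted p = 0.132 and 0.0891). Adamts2 and Plod1 kept the call in that fit (0.00991 and 0.04), and Serpinh1 did not (0.0794).

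Among the higher genes, Lum, the keratan sulfate proteoglycan lumican (mm10 chromosome 10, 97565501 to 97572703), read 9.88, 20.1, 6.19, 9.17 and 14.7 CPM at 6 months and 59.8, 51.8, 56.6, 59.7 and 75.1 CPM at 22 months (log2 2.33 ± 0.365, edgeR adjusted p = 0.00118). The old libraries were close to each other and each was over 2-fold above the highest young one. Dcn, which encodes decorin and neighbours Lum on the same chromosome (mm10 chromosome 10, 97479500 to 97518162), read 436, 701, 439, 467 and 502 CPM at 6 months and 1022, 1252, 799, 1075 and 1246 CPM at 22 months (log2 1.08 ± 0.252, edgeR adjusted p = 0.0111). Ogn, for osteoglycin, rose by log2 1.20 ± 0.281 and Comp, a cartilage matrix gene, by 3.64 ± 0.891 (edgeR adjusted p = 0.0115 and 0.0148). Tsku, a leucine-rich secreted protein that binds growth factors, read 54.4, 59.7, 75.1, 56.6 and 50.1 CPM at 6 months and 151, 83.3, 170.1, 158 and 257 CPM at 22 months (log2 1.47 ± 0.217, edgeR adjusted p = 0.000791). It lay outside these lists and entered through its difference from normal mice. Lum and Tsku kept the call without dwarf 6-month replicates 3 and 5 (edgeR adjusted p = 0.0212 and 0.0115). Dcn, Ogn and Comp did not (0.112, 0.0929 and 0.127), nor did Dcn when the oviduct score entered the fit (log2 0.73, edgeR adjusted p = 0.0504).

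Of 30 matrix proteases and inhibitors 3 were higher and 5 lower (median log2 -0.10), beside 2.92% and 8.27% of all tested genes. Ctsl, the lysosomal protease cathepsin L, which granulosa cells also secrete, read 1231, 693, 1166, 939.9 and 1114 CPM at 6 months and 337, 309.6, 436, 327 and 340.5 CPM at 22 months (log2 -1.56 ± 0.207, edgeR adjusted p = 0.000435, and 0.00991 without dwarf 6-month replicates 3 and 5). Even the lowest young library, replicate 2, was above the highest old one. Adamts5, which cuts the proteoglycan versican, fell (log2 -1.61 ± 0.332, edgeR adjusted p = 0.00602). The inhibitor gene Timp3 rose by 0.80 ± 0.178 (0.00894). Those 2 missed the threshold without dwarf 6-month replicates 3 and 5 (0.0594 and 0.0708), a fit in which 1 protease gene was lower and none higher. With the oviduct score in the fit 1 was higher and 2 were lower. The higher count was 1 without 6-month replicates 1 or 5. The lower count was 2 without 22-month replicates 1 or 3 or 6-month replicates 3 or 5, and 3 without 22-month replicates 2 or 4. Prss23, a secreted serine protease of the ovary, fell from 183 ± 53.3 to 56.6 ± 8.5 CPM (SD, n = 5; edgeR adjusted p = 0.00344, and 0.0449 without those 2 libraries).

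All 51 tested ribosomal protein genes had a negative change, with a median of log2 -0.57 and a range of -1.16 to -0.0075. Of these 20 were called lower, where 8.27% of all tested genes were. In 42 of the 51 the old libraries lay below the young ones without overlap, as in 14.7% of all tested genes. Together they took 4.60 to 5.31% of the scaled counts in the young libraries and 3.25 to 3.56% in the old ones. The call of any single gene was fragile. None of the 51 passed without dwarf 6-month replicates 3 and 5, although the median was then -0.53, 13 passed with the oviduct score in the fit, and 11 passed in thinned counts and under RLE or upper quartile scaling. With 1 library left out 4 to 13 passed, fewest without 6-month replicate 5 and most without 6-month replicate 2. Ribosomal protein genes have many near-identical processed copies, so how the authors' counting split their reads is uncertain.

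Rplp0, of the ribosomal stalk, read 2709, 2586, 2512, 2801 and 2829.9 CPM at 6 months and 1517, 1656, 1730.5, 1489 and 1608 CPM at 22 months (log2 -0.75 ± 0.149, edgeR adjusted p = 0.0051). Rpl8, Rpl15 and Rps19 fell too (log2 -0.86 ± 0.184, -0.69 ± 0.162 and -0.86 ± 0.209, edgeR adjusted p = 0.00713, 0.0121 and 0.0137). Eef2, which moves the ribosome along the message, was the most abundant gene called lower, at 5355, 5566, 5572, 4953 and 6243 CPM at 6 months and 3294, 3472, 3618, 3191 and 3801 CPM at 22 months (log2 -0.67 ± 0.122, edgeR adjusted p = 0.00296). Each old library was below each young one, and the spread within an age was small. Gnb2l1, the ribosomal scaffold RACK1, and the chaperone gene Hsp90ab1 were lower as well (log2 -0.67 ± 0.145 and -0.49 ± 0.105, edgeR adjusted p = 0.00736 and 0.00725). These 7 genes had, without dwarf 6-month replicates 3 and 5, edgeR adjusted p of 0.0548 to 0.107.

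Part of the transcripts of chromosome M were called higher. The files name them by identifiers, which were matched to symbols. All 13 protein-coding genes of the mitochondrial genome had a positive change, and the median was log2 1.03. Of them 7 were called higher and none lower, beside 2.92% and 8.27% of all tested genes. With any 1 dwarf library left out all 13 changes stayed positive, with medians of log2 0.824 to 1.21. The number of calls depended on the libraries in the fit. The count was 0 without dwarf 6-month replicates 3 and 5 (median 0.97, all 13 positive), and 2 with the oviduct score in the fit. It was 2 without 22-month replicate 2 or 6-month replicates 1 or 5, 3 without 22-month replicate 5 or 6-month replicate 4, and 4 without 22-month replicate 3 or 6-month replicates 2 or 3. It was 5 without 22-month replicate 1, 7 without 22-month replicate 4, 10 in DESeq2 and 12 in the fit on the 10 dwarf libraries alone. Their share of the scaled counts was 0.631, 0.737, 0.757, 0.728 and 0.613% in 6-month replicates 1 to 5 and 1.14, 1.46, 1.40, 0.933 and 2.00% in 22-month replicates 1 to 5. The lowest old library stood above the highest young one. mt-Co2, a subunit of cytochrome oxidase (ENSMUSG00000064354, mm10 chromosome M, 7013 to 7696), read 608, 827, 894, 726 and 656 CPM at 6 months and 1799.5, 2312, 1959.9, 1593 and 2934 CPM at 22 months (log2 1.51 ± 0.327, edgeR adjusted p = 0.00754). mt-Nd4, a subunit of complex I (ENSMUSG00000064363), rose by log2 1.33 ± 0.323 (edgeR adjusted p = 0.0138), and shares 7 bases with mt-Nd4l. Without dwarf 6-month replicates 3 and 5 the log2 changes were 1.57 and 1.33 and neither passed (edgeR adjusted p = 0.0653 and 0.105). The 2 mitochondrial ribosomal RNAs, mt-Rnr1 and mt-Rnr2, had log2 changes of 0.51 ± 0.4 and -0.01 ± 0.383 (edgeR adjusted p = 0.413 and 0.994).

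Of 45 oxidative phosphorylation genes encoded in the nucleus 1 was higher and 1 lower, beside 2.92% and 8.27% of all tested genes. The median was log2 -0.17. The higher one, Uqcrb of complex III, read 4.12, 5.25, 7.42, 3.64 and 6.18 CPM at 6 months and 20.6, 19.7, 16.8, 18.7 and 30.9 CPM at 22 months (log2 2.00 ± 0.394, edgeR adjusted p = 0.00481, and 0.0317 without dwarf 6-month replicates 3 and 5). Its young values were all below 8 CPM and its old ones all above 16 CPM. The gene has near-identical copies in the genome, so the assignment of its reads is uncertain. The lower call, the ATP synthase gene Atp5b, was lost without any 1 library but 6-month replicate 2.

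**Figure D4:**
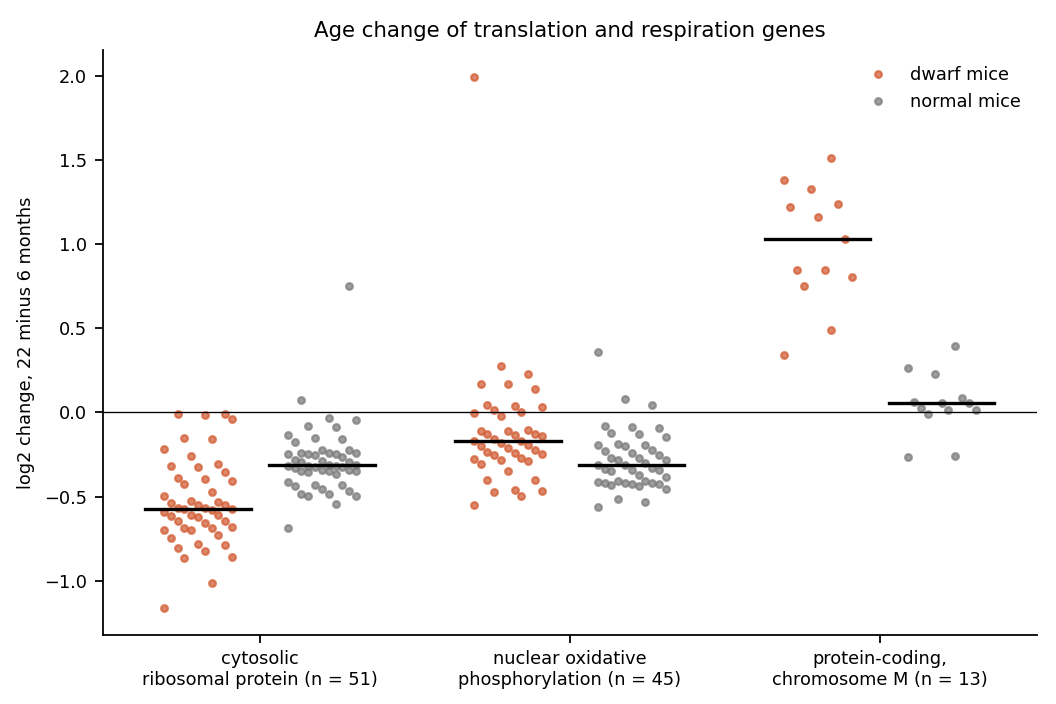
Log2 change from 6 to 22 months (vertical axis) of 51 cytosolic ribosomal protein genes, 45 nuclear oxidative phosphorylation genes and 13 protein-coding genes of chromosome M, in dwarf (orange) and normal (grey) mice. Each point is a gene and lines are medians. In dwarf mice the medians are -0.57, -0.17 and 1.03, and in normal mice -0.31, -0.31 and 0.05.

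Most fat cell markers were called higher. Of 8 tested adipocyte markers 7 were higher (median log2 2.87), where 2.92% of all tested genes were higher. Of 33 genes of lipid storage, a list that shares members with the markers, 10 were higher and none lower (median 0.60). The summed level of the markers was 22.7 to 126 CPM at 6 months and 154 to 587 CPM at 22 months, and the score was lowest in dwarf 6-month replicate 5 (0.201) and highest in 22-month replicate 2 (5.37). No member of either list passed without dwarf 6-month replicates 3 and 5, when the medians were 2.36 and 0.76. Those higher with the oviduct score in the fit were 3 markers and 6 storage genes. With 1 library left out 2 to 7 markers and 4 to 9 storage genes were called. The marker count was 4 or fewer, and the storage count 6 or fewer, without 22-month replicates 1, 2 or 4 or 6-month replicates 1, 3, 4 or 5. Fabp4, the fatty acid carrier of adipocytes, read 8.52, 13.7, 3.3, 6.44 and 2.35 CPM at 6 months and 52.3, 96.6, 33.4, 55.9 and 25.5 CPM at 22 months (log2 2.94 ± 0.656, edgeR adjusted p = 0.0092). Adipoq, for the fat hormone adiponectin, read 1.67, 4.8, 0.756, 1.75 and 0.147 CPM at 6 months and 18.9, 29.3, 11.1, 17.5 and 9.81 CPM at 22 months (log2 3.26 ± 0.814, edgeR adjusted p = 0.0163). In both genes young replicate 2 and old replicate 2 were the highest of their ages, and the ages did not overlap. Without 6-month replicate 2 the log2 change of Adipoq was 4.04. Pck1, of glycerol synthesis, went from 3.08 ± 2.09 to 21.2 ± 10.9 CPM with overlap (edgeR adjusted p = 0.0164). Lpl, the lipase that feeds fat cells, rose by log2 0.86 ± 0.208 (edgeR adjusted p = 0.0135). These 4 missed the threshold without dwarf 6-month replicates 3 and 5 (edgeR adjusted p = 0.105, 0.124, 0.131 and 0.114). The part of fat tissue around the ovary in these values was not tested.

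The smallest p among the rises belonged to Acsm3, a mitochondrial enzyme that activates medium-chain fatty acids (mm10 chromosome 7, 119760923 to 119784896). It read 0.503, 0.894, 0.687, 0.63 and 1 CPM at 6 months and 13.5, 8.98, 18.9, 15.6 and 9.1 CPM at 22 months (log2 4.14 ± 0.471, edgeR adjusted p = 0.000255, and 0.00907 without dwarf 6-month replicates 3 and 5). Young libraries were at about 1 CPM or less and old ones at several times that. Its exons share 743 bases with Eri2 on the other strand, where reads of the 2 genes cannot be told apart. The gene given as 5830411N06Rik read 0.409, 0.335, 0.206, 0.14 and 0.177 CPM at 6 months and 11.3, 1.7, 3.9, 10.2 and 1.43 CPM at 22 months (log2 4.42 ± 0.643, edgeR adjusted p = 0.000758, and 0.0221 without those libraries). Old replicates 1 and 4 were above the other 3, and all 5 were above the young libraries. Prss29, a serine protease of the reproductive tract, Agr3, a disulfide isomerase of ciliated epithelia, and Zpld1, a zona pellucida domain gene, rose by log2 4.56 ± 1.14, 3.17 ± 0.731 and 3.57 ± 0.857 (edgeR adjusted p = 0.016, 0.0106 and 0.0132). They missed the threshold without dwarf 6-month replicates 3 and 5 (edgeR adjusted p = 0.105, 0.107 and 0.116). For Prss29 the log2 change was 5.27 without 6-month replicate 4. The uroplakin gene Upk1b of surface epithelium rose with overlap by log2 1.76 ± 0.4 (edgeR adjusted p = 0.00975, or 0.109 without those libraries). Oviduct markers were higher in the old libraries on balance (no marker of 9 passed in edgeR, median log2 1.09). Ovgp1 was called higher in limma voom. The part of oviduct markers in these rises was not tested.

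Of 36 antioxidant genes 4 were higher (Gclc, Srxn1, Nfe2l2 and Prdx1) and none lower (median log2 0.18), where 2.92% of all tested genes were higher. Prdx1, a peroxidase that removes hydrogen peroxide, read 51.8, 54.8, 61.9, 50.5 and 51.2 CPM at 6 months and 108, 111, 96.9, 115 and 139 CPM at 22 months (log2 1.08 ± 0.249, edgeR adjusted p = 0.0108). The young libraries lay close together and below each old one. The gene shares 16 exonic bases with AV051173 on the other strand. The small heat shock gene Hspb8 read 37.8, 55.9, 40.9, 38.6 and 34.5 CPM at 6 months and 65.5, 73, 72.9, 79.2 and 129 CPM at 22 months (log2 1.02 ± 0.2, edgeR adjusted p = 0.00481). Without dwarf 6-month replicates 3 and 5 edgeR adjusted p was 0.0715 for Prdx1 and 0.0662 for Hspb8, and no antioxidant gene passed. The antioxidant count was 1 with the oviduct score in the fit, and 2 without 22-month replicate 2 or 6-month replicates 3 or 5.

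No immune cell marker was called in dwarf ovary. None of 11 macrophage, 8 T and NK cell and 9 B and plasma cell markers passed edgeR's adjusted threshold (unadjusted p under 0.05 for 3 of the 28), with medians of log2 0.26, 0.49 and 0.73. Lyz2, the lysozyme of macrophages, read 89.8, 104, 86.2, 74.3 and 191 CPM at 6 months and 144, 103, 129, 139 and 138 CPM at 22 months (log2 0.26 ± 0.342, edgeR adjusted p = 0.638). It was called higher in limma voom. The helper T cell gene Cd4 read 4.37, 4.58, 2.47, 4.34 and 6.86 CPM at 6 months and 7.77, 6.24, 4.12, 5.97 and 11.6 CPM at 22 months (log2 0.64 ± 0.515, edgeR adjusted p = 0.422). Of 34 interferon-induced genes 33 had a positive change (median 0.71) and 2, Ifit1 and Ifit3, were called higher (2.92% of all tested genes were). That count ran from 0 (without 22-month replicates 2 or 5, or 6-month replicates 1, 3 or 5) to 8 (without 6-month replicate 4), was 1 without 22-month replicate 1 or 6-month replicate 2 and in thinned counts, and was 0 with the oviduct score in the fit. Old replicate 2 had the highest interferon score (4.84 against 3.10 to 3.24 in the other old libraries), and young replicate 4 the highest of its age (4.08). Without old replicate 2 the median was 0.25. Of 11 endothelial markers none passed (median -0.21). The pericyte growth factor gene Pdgfb and Ace, the angiotensin converting enzyme of endothelium, fell (log2 -1.16 ± 0.268 and -1.48 ± 0.307, edgeR adjusted p = 0.0107 and 0.00624, or 0.126 and 0.0917 without dwarf 6-month replicates 3 and 5).

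Genes of the pathways of the hormones lacking in df/df mice, and of insulin signalling, gave 7 calls, where 11.2% of all tested genes were called. Of 22 genes of growth hormone, prolactin and thyroid response 1 was higher and none lower (median log2 0.08), and of 40 insulin, IGF and FOXO genes 3 were higher and 3 lower (median 0.08). The single rise, the thyroid hormone receptor gene Thrb, was lost without 22-month replicates 1 or 4 or 6-month replicates 3 or 5. The insulin list's rises included Igf2 and Igfbp4, and its falls were Irs2, Foxo1 and Eif4ebp1. With the oviduct score in the fit 1 was higher and 1 lower. Igf2 shares 98 exonic bases with Igf2as, and Irs2 162 with 9530052E02Rik, on the other strand. At most 1 rise was called without 22-month replicates 1, 4 or 5 or 6-month replicates 1, 3, 4 or 5, and 5 without 6-month replicate 2. Of the falls 1 was called without 22-month replicates 1 or 3 or 6-month replicate 5, and no gene of either list passed without dwarf 6-month replicates 3 and 5. Ghr, the growth hormone receptor gene, read 35.3, 23.4, 47.3, 38.9 and 32.9 CPM at 6 months and 36.2, 37.3, 36.4, 37.1 and 31.6 CPM at 22 months, with log2 0.01 ± 0.221 and a 95% interval of -0.43 to 0.44. Prlr, the prolactin receptor gene, read 116, 96.1, 182, 95.1 and 127 CPM at 6 months and 154, 61.1, 154, 156 and 216 CPM at 22 months (log2 0.27 ± 0.585, 95% interval -0.88 to 1.41). Igf1, the main mediator of growth hormone, read 105, 77.9, 123, 93.8 and 113 CPM at 6 months and 79.2, 51.3, 87.6, 84.9 and 142 CPM at 22 months (log2 -0.20 ± 0.296, 95% interval -0.78 to 0.38). The ages overlapped in all 3 genes, and the intervals leave room for changes of either sign. Foxo3, which keeps primordial follicles dormant, had log2 -0.21 ± 0.217 (95% interval -0.63 to 0.22). Pik3ip1, a brake on PI3-kinase, which insulin signalling activates, read 193, 151, 146, 169.7 and 211 CPM at 6 months and 65.4, 105, 75.7, 65.2 and 80.6 CPM at 22 months (log2 -1.15 ± 0.2, edgeR adjusted p = 0.00227, and 0.028 without those libraries).

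Among signals and regulators, 3 of 35 Wnt genes were higher (Wnt5a, Wnt9a and Axin2) and 1, Frzb, lower (median log2 0.58), beside 2.92% and 8.27% of all tested genes. With 1 library left out the fall was called in none of the fits but that without 22-month replicate 5, and no Wnt gene passed without dwarf 6-month replicates 3 and 5. The ligand genes Wnt5a and Wnt9a rose by log2 0.93 ± 0.206 and 0.83 ± 0.193 (edgeR adjusted p = 0.00888 and 0.0109). The glucocorticoid receptor gene Nr3c1 rose by log2 0.67 ± 0.132 and the circadian repressor gene Nr1d2 from 26.6 ± 4.1 to 55.3 ± 3.76 CPM (edgeR adjusted p = 0.00481 and 0.0175). Scn7a, an atypical sodium channel, read 4.97, 4.69, 5.15, 5.95 and 6.24 CPM at 6 months and 13, 12.9, 12.8, 10.9 and 17.7 CPM at 22 months (log2 1.31 ± 0.25, edgeR adjusted p = 0.00397). The Polycomb gene Cbx2 and the chromatin remodeller gene Smarca4 fell (log2 -1.51 ± 0.283 and -0.50 ± 0.0991, edgeR adjusted p = 0.00368 and 0.00473). Scn7a kept the call without dwarf 6-month replicates 3 and 5 (edgeR adjusted p = 0.0383), and the other 6 had edgeR adjusted p of 0.0527 to 0.151. The cell cycle inhibitors Cdkn1a and Cdkn2a, often read as marks of senescent cells, did not pass. Cdkn2a read 1.07, 1.29, 0.481, 0.7 and 0.441 CPM at 6 months and 2.63, 1.42, 3.19, 0.589 and 0.892 CPM at 22 months (log2 1.14 ± 0.488, edgeR adjusted p = 0.135), and Cdkn1a had log2 0.67 ± 0.307 (0.159). Cdkn1a was called higher in limma voom. The other 29 lists, with 526 tested places for genes, had 23 calls higher and 42 lower in all, beside 2.92% and 8.27% of all tested genes. Their medians ran from -2.85 (oocyte markers) to 1.49 (kallikrein and serine protease genes).

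Normal mice of the same ages share no library with the dwarf comparison. Normal 6-month replicate 3 was shallow, with 1365640 counts and 14.8% of them in Rn45s, a ribosomal RNA precursor. The other normal libraries held 5186090 to 22429386 counts. That library entered every normal change, the test of the difference and the shared estimate of the spread. In the normal comparison 1086 genes were called (6.75%, with 2.6% higher and 4.14% lower). In both comparisons 523 genes were called, all in the same direction, which is 29% of the dwarf calls and 48.2% of the normal ones. Of the 1802 dwarf calls 94.5% had the same sign in normal mice, against 74.8% of all tested genes. Across the 16099 genes, which are not independent replicates, the 2 sets of log2 changes had r = 0.653. The direct test of the difference between the age responses called 0 genes in edgeR (1126 had an unadjusted p under 0.05), 17 in DESeq2 and 9 in limma voom. In edgeR it called 3 genes with the oviduct score in the fit, and 202 when 3 normal libraries were left out (replicates 2 and 3 of the younger age, replicate 3 of the older), a set chosen with earlier results known. The fit over all 20 libraries called none of the genes below, and the cause of these unequal counts was not tested.

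The 10 smallest p of that difference belonged to Tk2, Ace, Cyr61, Phyhip, Tsku, Spn, Ctgf, Lum, Pik3ip1 and Epha5, in that order. Ctgf changed by log2 -0.60 in normal mice against -2.32 ± 0.296 in dwarf mice (difference -1.72 ± 0.403, unadjusted p = 0.000417, edgeR adjusted p = 0.533). Cyr61 changed by -0.06 in normal mice against -2.14 ± 0.323 in dwarf mice (difference -2.08 ± 0.446, unadjusted p = 0.000164, edgeR adjusted p = 0.533). For Lum and Tsku the differences were 2.11 ± 0.498 and 1.36 ± 0.305, with normal changes of 0.22 and 0.11. Ace and Pik3ip1, which fell in dwarf mice, changed by 0.54 and 0.04 in normal mice (differences -2.02 ± 0.431 and -1.19 ± 0.281). DESeq2 called the difference for Ctgf (adjusted p = 0.0443) and for Cyr61, Lum, Tsku and Ace (adjusted p = 0.0343 each), and limma voom for Ace and Pik3ip1 (adjusted p = 0.0432 each). In edgeR the Ctgf difference passed with the oviduct score in the fit (adjusted p = 0.0426). Without the 3 normal libraries Ctgf, Cyr61 and Pik3ip1 (adjusted p = 0.0394 each) and Ace (0.0385) passed in edgeR, and Lum (0.065) and Tsku (0.0788) did not. Without dwarf 6-month replicates 3 and 5 all 6 had edgeR adjusted p = 0.911. The mitochondrial thymidine kinase gene Tk2 changed by log2 0.47 in normal mice against -0.27 ± 0.106 in dwarf mice (difference -0.74 ± 0.151, unadjusted p = 9.75e-05). For Phyhip, Spn, which encodes the leukocyte protein CD43, and the ephrin receptor gene Epha5 the differences were 1.71 ± 0.374, -2.62 ± 0.606 and 2.5 ± 0.596, with dwarf changes of 0.97 ± 0.265, -0.05 ± 0.413 and 1.04 ± 0.404. DESeq2 called all 4 (adjusted p = 0.0343 each) and limma voom Phyhip (0.0432), while edgeR gave adjusted p = 0.533 for each. Without the 3 normal libraries Tk2 (0.0489) and Phyhip (0.0231) passed in edgeR, and Spn (0.0538) and Epha5 (0.0516) did not. For chromosome M the normal median was log2 0.05 with none of 13 genes called in edgeR. For the macrophage, T and NK, and B and plasma cell markers it was 1.22, 2.49 and 4.16, with 5 of 11, 4 of 8 and 5 of 9 called higher in edgeR. Lyz2 differed by -1.78 ± 0.488 between the 2 responses (unadjusted p = 0.00175, edgeR adjusted p = 0.594). For oocyte genes the medians in normal mice were -3.88 and -3.60 against -2.56 and -2.59 in dwarf mice, with no difference called.

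**Figure D5:**
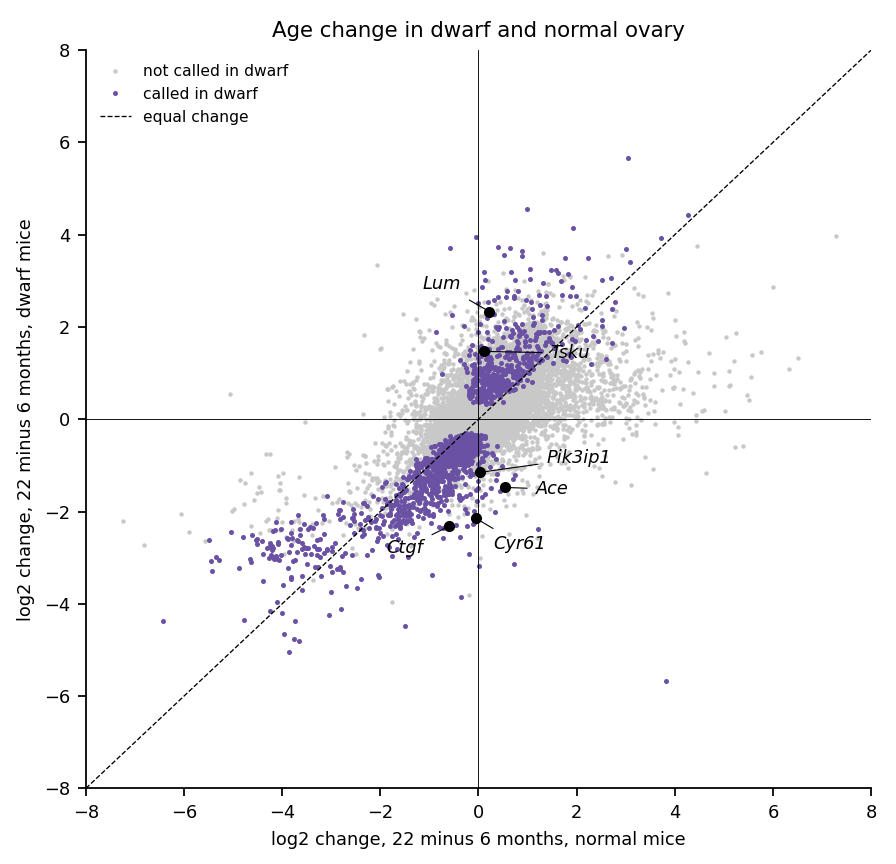
Log2 change from 6 to 22 months in normal (horizontal axis) and dwarf (vertical axis) ovary for the 16099 tested genes, with genes called in dwarf mice in purple and others in grey. The dashed line marks equal change. Black points are 6 genes among the smallest p of the difference: Lum and Tsku lie above the line and Ctgf, Cyr61, Ace and Pik3ip1 below it, each within 1 of 0 on the horizontal axis.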

How the data were processed

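Each of the 20 libraries came as raw counts per gene symbol from the authors, 1 deposited file per library, and the authors' gene models were given in mm10. The submitters' processing notes name edgeR, DESeq, HTSeq, Bowtie2, TopHat and TopHat2 2.0.10 with no role for any, and state neither the strand setting nor the annotation release. The 5 summary rows of each file were left out. Gene symbols, list members and tests were chosen with earlier results of these data known.

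Counts were fitted in edgeR 4.0.16 (R 4.3.3) with TMM scaling, filterByExpr (minimum count 10, minimum total 15) and robust quasi-likelihood over the 4 groups of all 20 libraries, which share one estimate of the spread. Of 23457 genes 16099 passed the filter, and a gene was called where its p, adjusted by Benjamini and Hochberg's method across all of them, was under 0.05. Standard errors are the log2 change divided by the root of F. The difference between dwarf and normal mice was tested as an interaction. DESeq2 1.42.0 and limma 3.58.1 (voom) served as alternatives, beside other scalings, filters, sets of libraries, thinned counts and an oviduct covariate. The code was tested on simulated data.

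Named genes were taken by rule: the 10 largest changes per direction without overlap, the 10 most abundant calls per direction, up to 4 calls per direction in each list by p (3 abundant members where none was called), a panel of hormone and cell cycle genes, and the 10 smallest p of the difference. Printed promoters are the called list members outside chromosome 18 that hold the motif, at most 3 per motif by p. They are from RefSeq (GRCm38.p6), where 12663 of 16099 tested genes had a window. Dwarf 22-month replicates 1 and 4 were the most alike pair (chi-square per degree of freedom 2.46, against 12.2 or more in the other pairs of that age), but differed beyond sampling noise and were kept as 2 samples. Depth sets the precision: the old libraries are the shallower ones, so low genes are least certain there. A few genes that the naming rule takes are not reported here.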

Additional observations from a re-analysis of the deposited data

Results flagged for a closer look

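A library was picked out where its gap to the nearest of the other 4 exceeded 0.71 of the group's range. Of 264 groups of 5 libraries tested, 23 met this, and chance alone flags about 1 in 20 groups. No cause was tested for any of them.

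Dwarf 22-month replicate 2 stood low for Hsd3b1 (1220 CPM), Cyp19a1 (0.662 CPM), Serpinh1 (215 CPM), Prss29 (7.75 CPM) and the scores of theca genes (5.27) and basement membrane genes (6.62). It stood high for Lpl (135 CPM) and the interferon score (4.84).

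Dwarf 22-month replicate 5 stood high for Adamts2 (94.7 CPM), Timp3 (507 CPM), Hspb8 (129 CPM), Uqcrb (30.9 CPM) and the collagen score (6.01), and low for Ghr (31.6 CPM), the repair score (2.81) and for Rn45s, a ribosomal RNA precursor (2.40% of counts). Dwarf 22-month replicate 3 stood high for Figla (0.639 CPM) and Ctsl (436 CPM).

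Among the young libraries, replicate 2 stood apart for Myc (160 CPM, low), Dcn (701 CPM, high) and Wnt5a (56.8 CPM, high). Replicate 3 stood apart for Amotl2 (182 CPM, high) and replicate 5 for Lyz2 (191 CPM, high).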

How the results depend on the processing

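The 1802 calls became 1654 with RLE and 1608 with upper quartile scaling, 2747 in DESeq2 (1096 higher, 1651 lower), 7492 in limma voom, 5169 in the 10 dwarf libraries alone, 4697 with 3 normal libraries left out (replicates 2 and 3 of the younger age, replicate 3 of the older), 1074 in thinned counts, 1107 with 22-month replicates 1 and 4 summed, 908 with the oviduct score in the fit (340 higher), 503 at an adjusted p under 0.01 and 136 against a 1.5-fold threshold. Leaving out 1 library gave 802 to 1681, and leaving out dwarf 6-month replicates 3 and 5, chosen after seeing the data, gave 180. The difference between dwarf and normal mice, 0 calls in edgeR, gave 17 in DESeq2, 9 in voom, 3 with the oviduct score and 202 without those 3 normal libraries. The cause was not tested.

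With the oviduct score in the fit the list medians became -1.77 (oocyte products), -1.87 (germ cell), -0.0777 (granulosa), 0.418 (theca), 1.07 (luteal), -1.12 (mitosis), -0.516 (replication), -0.218 (repair), -0.147 (Hippo), 0.0396 (basement membrane), -0.151 (collagens), 0.257 (Wnt), 0.00993 (insulin), -0.659 (ribosomal) and 0.597 (macrophage). The oviduct score differed between the ages, so in these medians its part and that of age cannot be fully told apart. Voom gave 0.0123 for insulin genes. Without dwarf 6-month replicates 3 and 5 the Hippo median was -0.122 and the antioxidant median 0.342. With 1 library left out the medians ran from -2.71 to -2.39 (germ cell), -0.555 to -0.23 (meiosis), -0.968 to -0.76 (replication), -0.288 to -0.146 (Hippo), -0.468 to -0.265 (collagens), 0.00617 to 0.133 (insulin), -0.58 to -0.493 (ribosomal) and 0.242 to 0.48 (macrophage).

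The log2 change of Ghr, not called, reversed without the low-count filter (-0.00117) and in 2 of the fits with 1 library left out (-0.0992 to 0.158 over all 10). That of Spn, near 0 and not called, reversed with the replicate block (0.0306), in thinned counts (0.0451), with the oviduct score (0.00395) and in part of the fits with 1 library left out (-0.14 to 0.0986). On the gene's strand alone CCAAT was in 50% of mitosis and 33.3% of replication windows (19.5% of tested windows), and TAATTG in 0% of germ cell and 3.7% of oocyte product windows (2.39%).

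Replicate numbers are shared between the ages but did not pair the libraries: correlations of same-numbered deviations were -0.00673, 0.388, -0.187, -0.0572 and 0.279, and 2 of 5 numbers (2 and 5) correlated best with their own. A fit with the replicate block called 1904 genes (604 higher, 1300 lower), of which 1603 were among the 1802.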
